A study of Mus musculus with 36 samples.

Results

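The genes described here are 9 transcription factor genes that govern the formation of mesoderm and endoderm: T, Eomes, Mixl1, Gsc, Cdx2, Gata4, Gata6, Sox17 and Foxa2. They are 9 of the 22367 protein-coding genes on chromosomes 1 to 19, X and Y in the GENCODE vM1 annotation of the mouse genome build mm9. For each gene, all peaks with a midpoint inside the gene body or up to 50 kb from either end were collected from 9 lists of chromatin immunoprecipitation sequencing (ChIP-seq) peaks, and all 9 genes were found in the annotation. The rule that collects the peaks uses no measured value.

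The series compares mouse embryonic stem cells (ESCs) with the neural progenitor cells (NPCs) made from them, and asks where the NuRD complex sits in each. It holds 36 samples in 34 groups, of which 9 have peak lists. The other 27 samples, among them inputs, histone marks and Zfp296 knockout cells, were not analysed here. In wild-type R1 ESCs, a mouse line grown in serum with LIF plus 2i (a pair of kinase inhibitors that hold the cells in a naive state), MBD3 and CHD4 were each profiled in 2 replicates, and SIN3A in 1 preparation without and 1 with spike-in chromatin. In NPCs derived from wild-type R1 ESCs and kept in NPC medium, MBD3 and CHD4 were each profiled once. ZFP296 was profiled once, with an antibody against GFP, in an ESC line grown like the others and labelled ZFP296-BAC R1. No other genetic change is given for any of these groups.

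NuRD is a chromatin complex that joins nucleosome remodelling, by the ATPase CHD4, to histone deacetylation, and MBD3 links its parts. SIN3A is the scaffold of another histone deacetylase complex, and ZFP296 is a zinc finger protein that is abundant in ESCs and binds NuRD. The 9 genes act in early lineage choice: T and Eomes encode T-box factors of the primitive streak, Mixl1 and Gsc homeobox factors of the mesendoderm, Cdx2 a caudal-type homeobox factor of trophectoderm and the posterior embryo, Gata4 and Gata6 zinc finger factors of primitive endoderm and heart, and Sox17 and Foxa2 factors of definitive endoderm. Peak lists do not measure expression.

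The lists held from 2304 peaks (NPC MBD3) to 29974 peaks (ESC CHD4 replicate 2). Before the results, 3 points in the labels need stating. In ESC CHD4 replicate 2 each of the 29974 peaks carries a name with Zfp219 BAC in it although the sample is labelled wild type, so CHD4 results are given with and without that list. The methods of the study describe the ZFP296 line as a GFP-ZFP296 construct in KH2 ESCs and not as an R1 line. Peak names give a threshold of 0.0001 for SIN3A without and of 0.001 with spike-in, so threshold, preparation and spike-in cannot be told apart. A peak list gives positions and no reads, so the values below are counts, positions and ranks, and no test was made.

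Most of the 71 peaks found near the 9 genes were CHD4 peaks of ESC replicate 2 or SIN3A peaks. ESC CHD4 replicate 2 placed 33 peaks near 8 of the 9 genes, against 67.7% of all protein-coding genes with at least 1 peak in the same window. Replicate 1 placed 5 peaks near 3 genes, Eomes, Gsc and Gata4, against 43% of all genes. SIN3A gave 11 peaks near 5 genes without spike-in (65.1% of all genes) and 12 peaks near 5 genes with spike-in (59.2%). Of these 4 lists only CHD4 replicate 2, the one with the discordant peak names, covered a larger share of the 9 genes (88.9%) than of all genes.

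ESC MBD3 replicate 1 had 2 peaks, near T and Gata4, in a list that marks 15.8% of all genes. Replicate 2 had 4 peaks, near T, Gsc and Sox17, in a list that marks 33.1%. These are 22.2% and 33.3% of the 9 genes.

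No ZFP296 peak lay in any of the 9 windows, where 21.9% of all genes had one. No NPC MBD3 peak did so either, against 15.7% of all genes. NPC CHD4 had 4 peaks, 1 each near Eomes, Cdx2, Gata4 and Gata6, against 57.9% of all genes with a peak. All 9 genes therefore lacked a ZFP296 peak and an NPC MBD3 peak, and, as given next, a replicated ESC MBD3 site, a state that 65.4% of all genes shared.

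**Figure D1:**
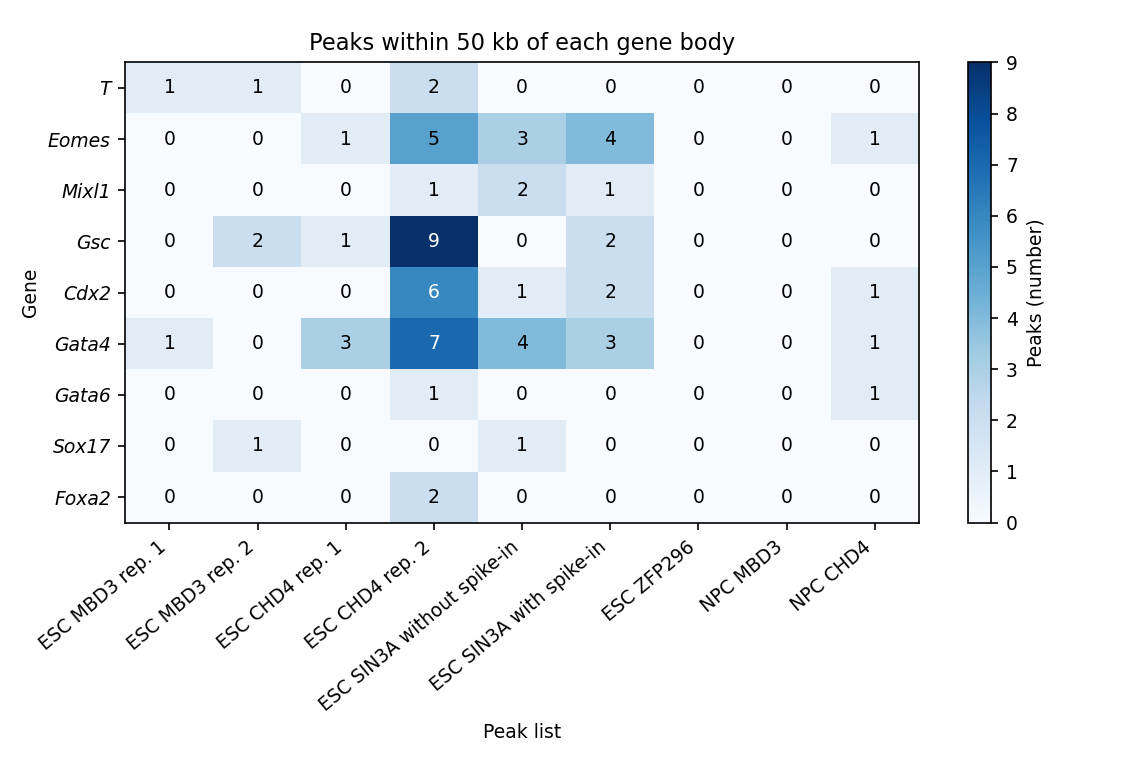
Number of peaks within 50 kb of each gene body (rows) in each of the 9 peak lists (columns), with darker blue for more peaks. Gsc reached 9 peaks and Gata4 7 in ESC CHD4 replicate 2, while the ZFP296 and NPC MBD3 columns hold only 0.

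For a factor with 2 ESC lists, a site was defined as a peak of the shorter list with 1 bp or more in common with the longer list. By this definition 0 of the 9 genes had an ESC MBD3 site (10.1% of all genes had one), since none of the 6 MBD3 peaks was found in the other replicate. An ESC CHD4 site was present near 2 genes, with 1 site at Gsc and 2 at Gata4, against 36.8% of all genes. An ESC SIN3A site was present near 4 genes, with 2 at Eomes and 1 each at Mixl1, Gata4 and Cdx2, against 53.5% of all genes. The windows of the 9 genes held a median of 1 other protein-coding gene (range 0 to 3), and those of all genes held 3. The part that this lower gene density plays in the shares was not tested.

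**Figure D2:**
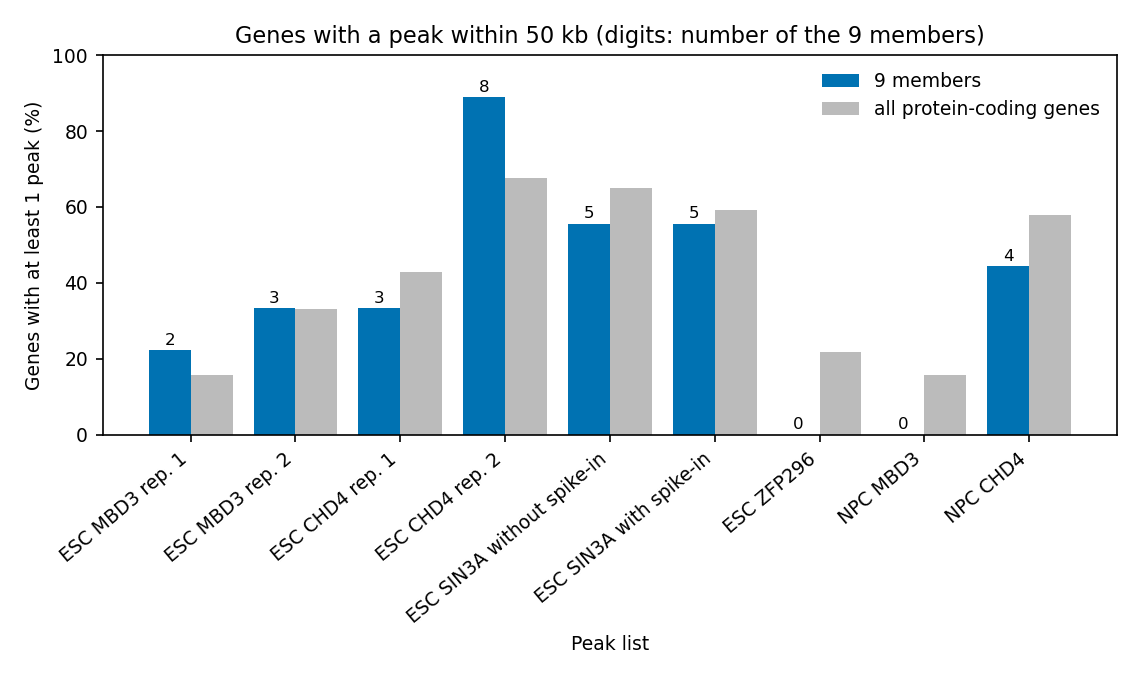
Percentage of the 9 genes (blue, with the number of genes above each bar) and of all 22367 protein-coding genes (grey) with at least 1 peak within 50 kb, for each list. The blue bar exceeds the grey one by more than 10 percentage points in ESC CHD4 replicate 2 alone, and is at 0 for ZFP296 and NPC MBD3.

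Over the 9 lists together, the 9 genes had a median of 4 peaks, and all protein-coding genes a median of 8. Gata4 had 19 peaks, more than 77.4% of all genes, in the longest window (172.8 kb, because its annotated body spans 72771 bp). Eomes and Gsc had 14 each, more than 66.9% of genes, and Cdx2 had 10, more than 55.4%. T and Mixl1 had 4 each, and Gata6, Sox17 and Foxa2 had 2 each, fewer than most genes. The last 3 were also the members with no other protein-coding gene in their window. Of these totals ESC CHD4 replicate 2 supplied 9 peaks at Gsc, 7 at Gata4, 6 at Cdx2 and 5 at Eomes. It supplied 2 each at T and Foxa2, 1 each at Mixl1 and Gata6, and 0 at Sox17.

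T encodes brachyury, the founding T-box factor that drives nascent mesoderm and notochord, and lies on chr17:8627288-8635361, plus strand. Its 4 peaks were all nearer to a start of T than to a start of any other protein-coding gene, and none overlapped another. MBD3 replicate 1 had a peak 650 bp upstream of the start, with a value of 5.61 that exceeded 17.8% of its list. The value is the authors' −log10 figure for a peak, and it is used here only as a rank within one list. MBD3 replicate 2 had its peak 19.9 kb upstream, at 24.6% of its list. CHD4 replicate 2 had peaks 25.3 kb upstream (69.6%) and 29.3 kb downstream of the start (43.3%). T is thus the only one of the 9 genes with a peak in both MBD3 replicates, but at different places. The sequence under the middle 200 bp of the start-proximal MBD3 peak is shown because it is the MBD3 peak nearest to an outermost start of these genes. In this and the other sequences, printed 5′ to 3′ on the strand of the gene from the mm9 reference, capitals mark matches to 6 strings searched on both strands, namely the AP-1 string TGACTCA, the octamer ATGCAAAT that POU5F1 binds, the core CCATTGT bound by SOX factors, the short element AGATAA recognised by GATA factors, the TTAGGG unit of telomeres and the element TCACACC recognised by T-box factors.
T upstream MBD3 peak, chr17:8626539-8626738, plus strand: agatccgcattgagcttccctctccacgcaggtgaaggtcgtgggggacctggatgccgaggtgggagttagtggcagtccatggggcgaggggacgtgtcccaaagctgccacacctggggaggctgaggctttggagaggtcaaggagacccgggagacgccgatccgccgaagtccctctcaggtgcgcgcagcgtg
It held none of the 6 strings, and had a GC content of 65% with 14 CpG dinucleotides, where the median MBD3 replicate 1 peak had 51% and 3.

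Eomes encodes eomesodermin, the T-box factor required for definitive endoderm and for trophoblast, and lies on chr9:118387330-118395250, plus strand. Its starts drew 5 of the 13 peaks that lay within 1 kb of a start of the 9 genes. CHD4 replicate 2 (value 7.57, above 36.9% of its list), SIN3A without spike-in (16.8, 76.3%) and SIN3A with spike-in (12.2, 75.9%) each had a peak in the same exon, about 1 kb past the first start, which merge to chr9:118388110-118388534. CHD4 replicate 1 had a peak just beyond it, at chr9:118388547-118388876 in the intron (6.02, 24%). The peaks of the 2 CHD4 replicates did not touch, so Eomes has no CHD4 site by overlap, but it gains 1 when midpoints within 500 bp are accepted. SIN3A with spike-in had a further peak 416 bp past the start, and CHD4 replicate 2 had 1 peak 6.61 kb upstream, 1 in an exon 4.27 kb past the start and 2 beyond the end of the gene. The other SIN3A site, 28 kb downstream, lay at the start of Golga4, which encodes a Golgi protein.
Eomes exon, CHD4 and SIN3A, chr9:118388231-118388430, plus strand: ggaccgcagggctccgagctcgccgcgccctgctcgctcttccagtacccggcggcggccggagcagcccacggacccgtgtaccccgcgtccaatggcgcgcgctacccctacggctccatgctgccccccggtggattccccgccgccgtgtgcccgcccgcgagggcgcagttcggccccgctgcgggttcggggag
This exonic stretch, shown as the place where 3 lists meet, held none of the 6 strings and was very rich in CpG, with 77% GC and 30 CpG dinucleotides in 200 bp. The median SIN3A peak without spike-in had 65.5% GC and 16 CpG.

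Mixl1 encodes a paired-type homeobox factor of the primitive streak and lies on chr1:182623174-182627165, minus strand. CHD4 replicate 2 (value 10.7, above 67.1% of its list) and SIN3A without spike-in (9.55, 31.3%) had overlapping peaks in an exon, 205 and 310 bp past the start. SIN3A with spike-in had no peak there. The SIN3A site of both lists in this window lay 29.3 kb upstream, 258 bp from the start of Acbd3, the gene of a Golgi protein. With values above 77.6% and 85% of their lists, those were the higher SIN3A peaks of the window, so the SIN3A site counted for Mixl1 belongs by distance to its neighbour.
Mixl1 exon, CHD4 and SIN3A, chr1:182626756-182626955, minus strand: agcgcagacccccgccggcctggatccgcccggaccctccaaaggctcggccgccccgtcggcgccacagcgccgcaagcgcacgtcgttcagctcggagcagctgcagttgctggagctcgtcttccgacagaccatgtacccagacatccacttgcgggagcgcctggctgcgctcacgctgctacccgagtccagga
Like the Eomes exon, the stretch was rich in CpG, with 69.5% GC and 23 CpG, and held none of the strings.

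Gsc encodes goosecoid, the homeobox factor of the gastrula organizer, and lies on chr12:105709419-105711537, minus strand. It had the most CHD4 replicate 2 peaks of the 9 genes, 9, of which 8 were spread downstream from 20.2 to 39.9 kb past the start and 1 was upstream. At the far end of this group, CHD4 replicate 1 (value 6.66, above 28.8% of its list), CHD4 replicate 2 (4.24, 2.96%) and MBD3 replicate 2 (5.00, 9.23%) shared 1 region, chr12:105671501-105671798, nearer to Serpina3n than to Gsc. This is the only region near the 9 genes with peaks of MBD3 and of both CHD4 replicates, and all 3 peaks ranked low. Upstream by 12 kb, MBD3 replicate 2 (7.55, 39.3%) and CHD4 replicate 2 (11.0, 69.6%) met again, at chr12:105723490-105723710. At the start itself only SIN3A with spike-in had a peak, 129 bp past it (44.5%). Both regions with MBD3 and CHD4 are shown.
Gsc downstream, MBD3 and both CHD4 lists, chr12:105671581-105671780, minus strand: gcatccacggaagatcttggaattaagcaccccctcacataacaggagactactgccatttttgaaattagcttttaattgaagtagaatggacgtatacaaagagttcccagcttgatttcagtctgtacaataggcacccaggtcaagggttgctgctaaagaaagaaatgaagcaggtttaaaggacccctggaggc
Gsc upstream, MBD3 and CHD4, chr12:105723465-105723664, minus strand: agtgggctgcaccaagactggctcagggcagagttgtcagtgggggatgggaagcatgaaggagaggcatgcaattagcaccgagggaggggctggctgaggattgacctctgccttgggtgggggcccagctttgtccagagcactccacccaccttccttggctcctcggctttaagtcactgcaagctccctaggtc
Unlike the Eomes and Mixl1 exons, these intergenic stretches held 2 CpG each, with 43.5% and 60% GC, and none of the strings.

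Cdx2 encodes the caudal homeobox factor that specifies trophectoderm and later the hindgut, and lies on chr5:148112381-148118846, minus strand. An intron of Cdx2 held a region in which CHD4 replicate 2 (value 9.79, above 59.7% of its list), SIN3A without spike-in (19.2, 82.4%) and SIN3A with spike-in (9.79, 60.3%) met, 2.23 kb past the start at chr5:148116488-148116737. The SIN3A peak without spike-in was the highest ranked of that list near the 9 genes. CHD4 replicate 1 had no peak in the window at all. The other CHD4 replicate 2 peaks ran from 20.6 kb upstream to 56.2 kb downstream. The farthest (17.8, 91.7%) was the only ESC peak near the 9 genes above 90% of its list. Its nearest start was that of Pdx1, a homeobox gene of pancreas.
Cdx2 intron, CHD4 and SIN3A, chr5:148116485-148116684, minus strand: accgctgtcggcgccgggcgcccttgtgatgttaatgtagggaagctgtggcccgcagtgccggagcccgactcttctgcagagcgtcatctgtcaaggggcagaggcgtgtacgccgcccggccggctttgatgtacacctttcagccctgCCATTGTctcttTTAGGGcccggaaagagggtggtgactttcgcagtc
This stretch held a SOX string and a telomere unit string, close to each other. In the SIN3A list without spike-in 2.34% and 6.1% of all peaks hold these strings in their middle 200 bp.

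Gata4 encodes the zinc finger factor of primitive endoderm and heart, and lies on chr14:63817759-63890529, minus strand, with 6 annotated transcript starts. MBD3 replicate 1 (value 5.36, above 13.4% of its list) and CHD4 replicate 2 (7.66, 38.2%) had separate peaks 275 and 6 bp upstream of an inner start, 26.1 and 26.4 kb past the outermost one. From 10.2 kb upstream of that inner start, an intron held 2 neighbouring regions. The first, chr14:63874114-63874545, had a CHD4 peak of both replicates (7.42, 41% and 5.83, 15.9%). The second, chr14:63874683-63874960, had peaks of CHD4 replicate 2 (11.7%), SIN3A without spike-in (1.19%) and SIN3A with spike-in (22.8%), all low in their lists.
Gata4 intron, both CHD4 lists, chr14:63874168-63874367, minus strand: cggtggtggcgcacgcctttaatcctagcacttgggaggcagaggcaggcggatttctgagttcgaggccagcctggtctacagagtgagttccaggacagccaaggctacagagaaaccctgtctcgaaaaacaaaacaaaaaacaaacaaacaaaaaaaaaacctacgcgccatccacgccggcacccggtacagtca
Gata4 intron, CHD4 and SIN3A, chr14:63874658-63874857, minus strand: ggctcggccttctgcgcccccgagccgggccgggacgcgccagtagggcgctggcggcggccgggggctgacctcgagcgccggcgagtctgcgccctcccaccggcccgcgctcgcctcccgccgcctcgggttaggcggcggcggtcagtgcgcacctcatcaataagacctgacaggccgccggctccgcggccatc
The first stretch is largely repeated sequence: of 5 evenly spaced pieces of 30 bases, 4 occurred more than once in the reference and 1 of them 13063 times. The 5 pieces of the second stretch, which had 78% GC and 31 CpG, occurred once each. The other CHD4 site of both replicates in the window lay in an intron of Fdft1, a gene of sterol synthesis, and 10 of the 19 peaks were nearer to Fdft1 or Neil2 than to Gata4.

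Gata6, which acts with Gata4 in primitive endoderm and lies on chr18:11052508-11085633, plus strand, had 2 peaks. CHD4 replicate 2 had a peak 207 bp upstream of its start (value 8.92, above 52.4% of its list), and NPC CHD4 had a peak 36.4 kb upstream (8.56, 44.9%). Neither MBD3 nor SIN3A had a peak in the window.

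Sox17 and Foxa2, the SOX and forkhead factors of definitive endoderm, were nearly bare. Sox17, on chr1:4481009-4486494, minus strand, had an MBD3 replicate 2 peak 24.3 kb downstream of the start (7.55, 39.3%) and a peak of SIN3A without spike-in in an exon, 3.06 kb past the start (12.7, 55.7%). It was the only one of the 9 genes with no CHD4 peak in any list. Foxa2, on chr2:147868613-147872705, minus strand, had only CHD4 replicate 2 peaks, 1 at 203 bp from an inner start (4.05, 1.98%) and 1 at 6.05 kb past the first start (7.00, 31.1%). Without CHD4 replicate 2, Foxa2 had no peak in any list.

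**Figure D3:**
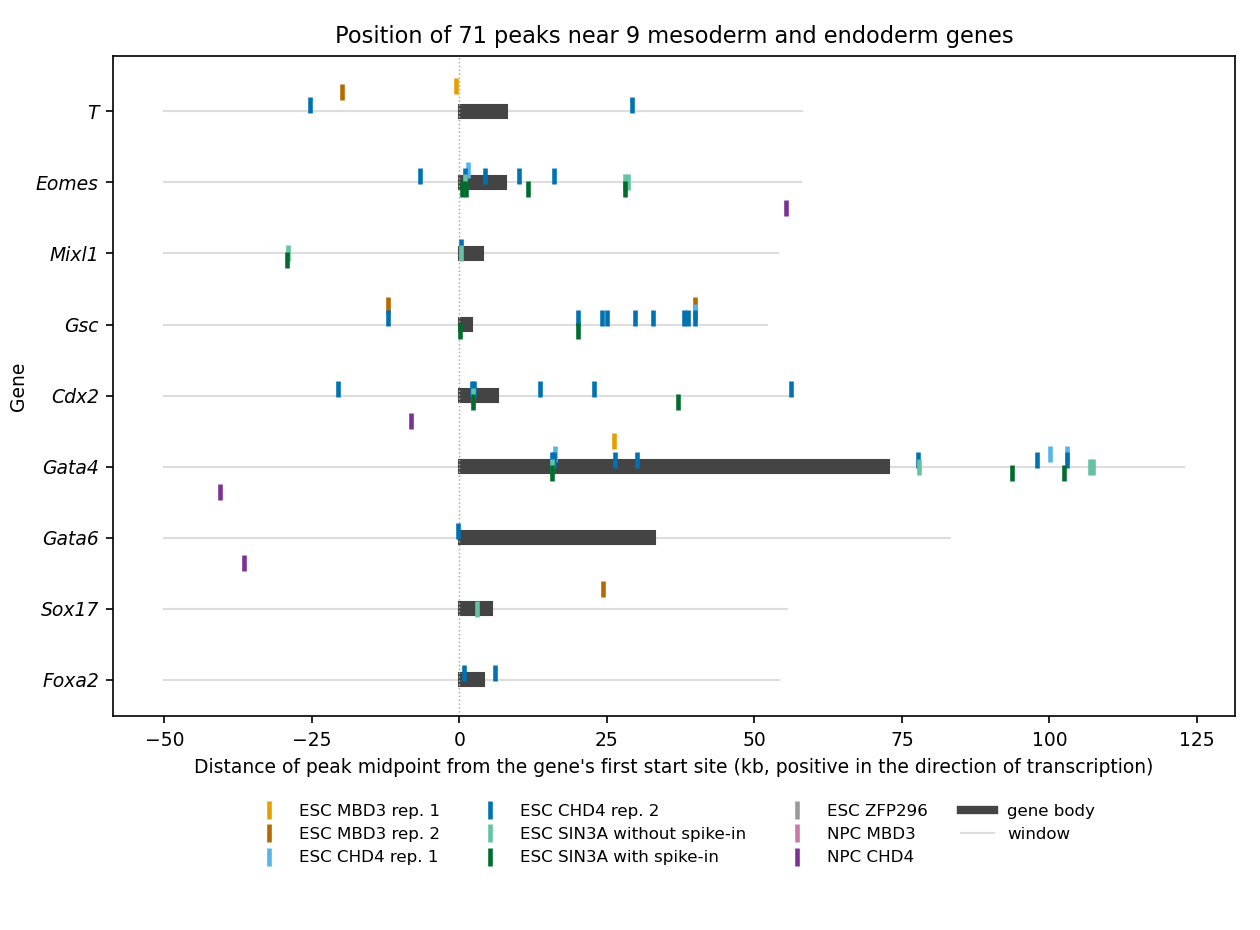
Distance in kb of each of the 71 peak midpoints from the first start site of its gene, positive in the direction of transcription, with 1 row per gene, 1 colour per list, dark boxes for gene bodies and grey lines for the windows. Most peaks near Gsc lie in a group 20.2 to 39.9 kb downstream, and Sox17 and Foxa2 have 2 peaks each.

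Peaks at promoters, with a midpoint up to 1 kb from any annotated transcript start of the gene, were found at 7 of the 9 genes, all except Sox17 and Cdx2, and numbered 13. Gata6 and Foxa2 count here through CHD4 replicate 2 alone. The share of all genes with a promoter peak in any of the 9 lists was not counted, so shares are given per list. CHD4 replicate 2 had them at Eomes, Mixl1, Gata4, Gata6 and Foxa2 (5 genes, 21.8% of all genes), and replicate 1 at Eomes (8.03% of all genes). SIN3A had them at Eomes and Mixl1 without spike-in (40.8% of all genes) and at Eomes and Gsc with spike-in (33.5%). MBD3 replicate 1 had them at T and Gata4 (2.18%), replicate 2 at none (3.04%). ZFP296 (2.68%), NPC MBD3 (2.33%) and NPC CHD4 (12.4%) had none. Eomes was the only one of the 9 genes with a promoter peak in both SIN3A lists, and also the only one with a promoter peak in both CHD4 replicates. By the first start alone, CHD4 replicate 1 had a promoter peak at 0 of the 9 genes (7.14% of all genes). MBD3 replicate 1 then had one at T only (1.87%), and CHD4 replicate 2 at Eomes, Mixl1, Gata6 and Foxa2 (19.8%). The SIN3A genes stayed the same.

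By distance, 42 of the 71 peaks were nearest to a start of the gene in whose window they lay, and 29 were nearer to a start of another protein-coding gene. Inside the gene bodies lay 23 peaks, with 13 upstream and 35 downstream. Merging overlapping peaks gave 55 regions, of which 43 came from 1 list, 12 from 2 or more lists, 4 from 3 lists and 0 from 4 or more. The 12 shared regions were near Eomes, Mixl1, Gsc, Gata4 and Cdx2, and the 4 regions of 3 lists are the Eomes exon, the Gsc downstream region, the second Gata4 region and the Cdx2 intron described above. Each of these 4 includes a peak of CHD4 replicate 2, so without that list none would hold 3 lists. How often regions near other genes are shared between lists was not counted.

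The 2 lists of a factor were also compared peak by peak. Of the 33 CHD4 replicate 2 peaks, 3 overlapped a replicate 1 peak, against 27.7% of all its peaks. Of the 5 replicate 1 peaks, 3 overlapped a replicate 2 peak, against 70.4% of all. For SIN3A, 5 of 12 peaks with spike-in had a partner without it (77.4% of all), and 5 of 11 in the other direction (53.3%). Of the 33 CHD4 replicate 2 peaks, 6 overlapped a SIN3A peak of either list, against 22% of all. These counts are a description, and as given next the CHD4 peaks also ranked low, whose part in the overlap was not tested.

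Most ESC MBD3 and CHD4 peaks near the 9 genes were modest by the authors' own value. Of the 71 peaks, 43 lay below the median of their list and 2 exceeded 90% of it. CHD4 replicate 2, the list with the discordant peak names, supplied 23 of the 43. Below their medians lay 5 of 11 SIN3A peaks without spike-in, 4 of 12 with spike-in and 1 of 4 NPC CHD4 peaks. The median rank was 15.6% in MBD3 replicate 1 and 31.9% in replicate 2, with all 6 MBD3 peaks below the median of their list. In CHD4 it was 28.8% for replicate 1 and 32.3% for replicate 2, where 23 of 33 peaks lay below the median. SIN3A peaks ranked around the middle, with medians of 51.4% without and 55.4% with spike-in. The 4 NPC CHD4 peaks ranked from 44.9% to 96.6%, with a median of 65.1%.

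**Figure D4:**
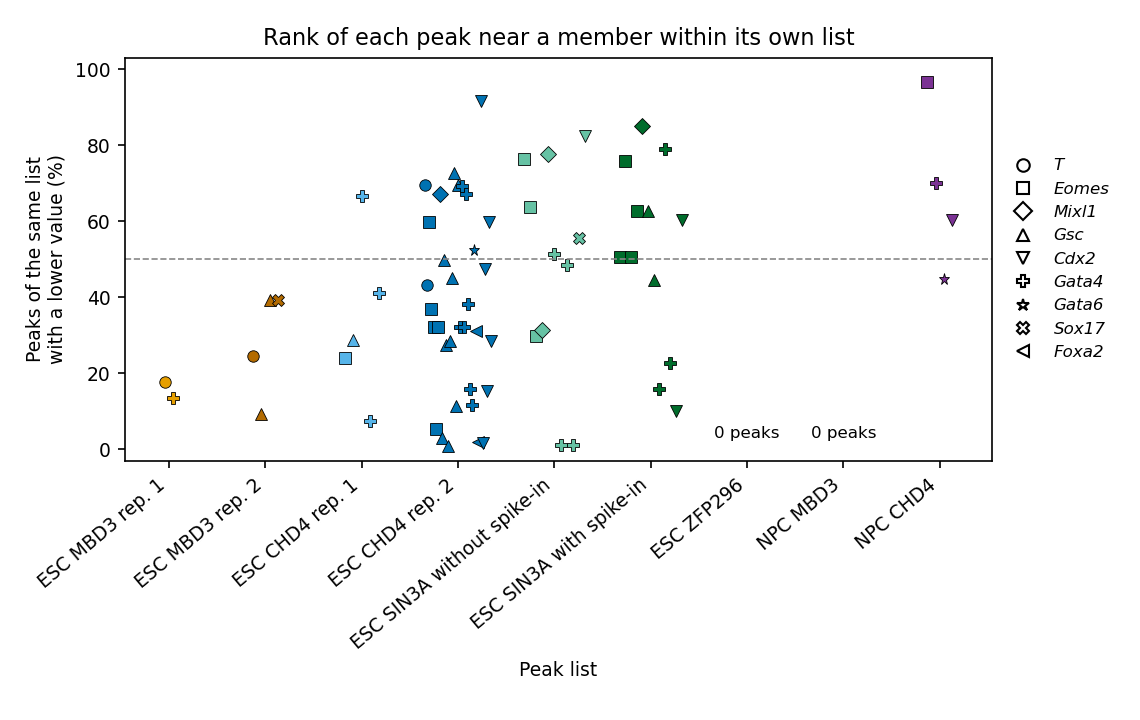
Rank of each peak near the 9 genes within its own list, as the percentage of peaks of that list with a lower value (vertical axis), by list (horizontal axis) and gene (symbol shape), with a dashed line at the list median. All 6 MBD3 peaks sit below the line, and the highest symbols are an Eomes peak in NPC CHD4 (96.6%) and a Cdx2 peak in ESC CHD4 replicate 2 (91.7%).

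The 4 NPC CHD4 peaks overlapped no peak of any ESC list and no NPC MBD3 peak. Over all NPC CHD4 peaks, 14.7% overlapped ESC CHD4 replicate 2 and 9.76% NPC MBD3. The Eomes peak, chr9:118442537-118442736, lay 55.3 kb past the start in an intron of Golga4, with a value of 23.0 that exceeded 96.6% of its list. The Cdx2 peak lay 8.14 kb upstream (10.2, 60.2%), in an exon of another protein-coding gene and with Prhoxnb as the gene of the nearest start. The Gata4 peak lay 40.6 kb upstream (11.6, 70.1%). These distal sequences are shown for the string they share.
Eomes distal, NPC CHD4, chr9:118442537-118442736, plus strand: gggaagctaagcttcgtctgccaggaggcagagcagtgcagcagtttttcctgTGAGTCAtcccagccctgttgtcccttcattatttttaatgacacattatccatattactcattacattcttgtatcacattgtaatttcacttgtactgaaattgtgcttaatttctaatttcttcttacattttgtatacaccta
Cdx2 upstream, NPC CHD4, chr5:148126884-148127083, minus strand: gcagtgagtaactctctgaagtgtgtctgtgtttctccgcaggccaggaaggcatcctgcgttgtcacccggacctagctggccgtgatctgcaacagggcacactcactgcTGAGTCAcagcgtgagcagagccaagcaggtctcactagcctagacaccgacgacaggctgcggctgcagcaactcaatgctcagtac
Gata4 upstream, NPC CHD4, chr14:63931069-63931268, minus strand: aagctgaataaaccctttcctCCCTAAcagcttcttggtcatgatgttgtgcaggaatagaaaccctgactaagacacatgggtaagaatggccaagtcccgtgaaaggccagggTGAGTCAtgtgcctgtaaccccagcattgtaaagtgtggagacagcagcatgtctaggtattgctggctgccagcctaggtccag
Each holds the AP-1 string, here as TGAGTCA on the strand of the gene, and that of Gata4 also holds a telomere unit, read from the other strand. AP-1 is the FOS and JUN dimer, and TGACTCA with its reverse complement is its textbook site.

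All 4 NPC CHD4 peaks near the 9 genes, the one at Gata6 included, held the AP-1 string in their middle 200 bp, as did 42.2% of all NPC CHD4 peaks and 47.5% of all NPC MBD3 peaks. In the ESC lists the string was found in 3 of the 67 peaks near the 9 genes, all 3 in CHD4 replicate 2 (9.09% of 33 peaks, against 4.68% of all its peaks), 2 near Eomes and 1 near Gsc. With 4 peaks, a share of all cannot be set apart from the list at large. The octamer and the T-box element were in none of the 71 peaks, against 0.521% to 5% and 1.9% to 4.37% of all peaks, depending on the list. The GATA string was in 2 peaks, both of CHD4 replicate 2 near Gsc (2.1% to 8.71% of all peaks by list). The SOX string was in 3 (1.88% to 6.4%) and the telomere unit in 8 (5.16% to 10.3%). The Cdx2 intron region counts once per SIN3A list in both the SOX and the telomere figure. An absent string says only that these letters are not in this window.

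**Figure D5:**
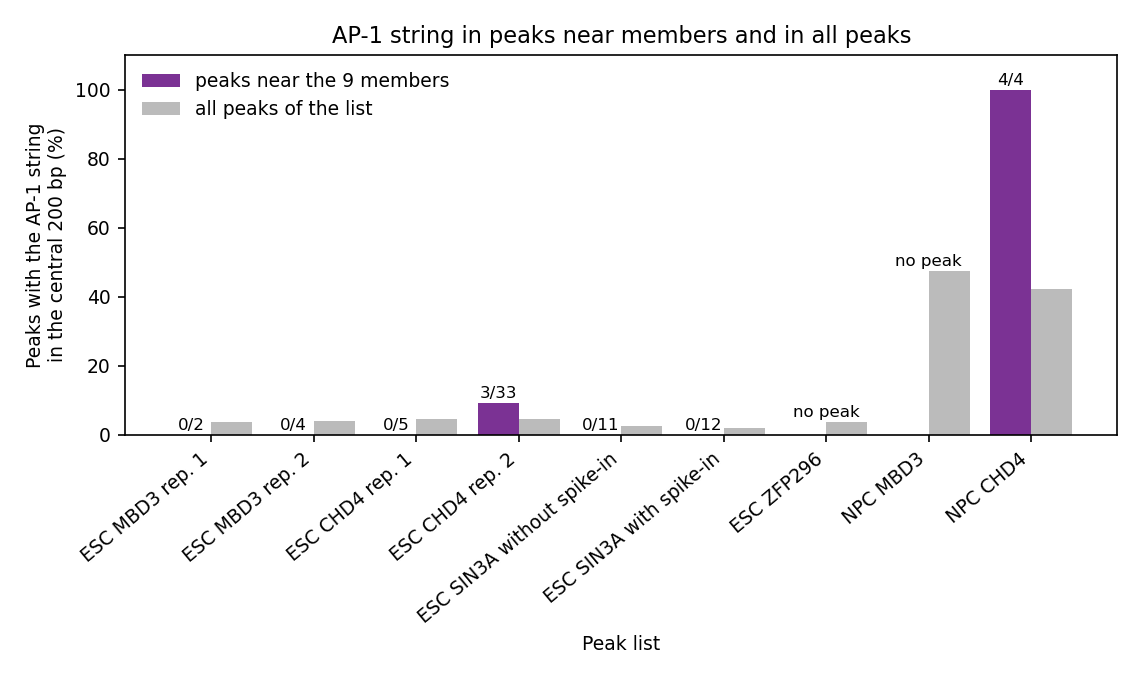
Percentage of peaks with the AP-1 string (TGACTCA or its reverse complement) in the middle 200 bp, for peaks near the 9 genes (purple, with the number of peaks above each bar) and for all peaks of the same list (grey). The string was in 4 of 4 NPC CHD4 peaks near the 9 genes and in 42.2% of all peaks of that list, and in under 5% of all peaks in each ESC list.

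CHD4 in ESCs and NPCs was set side by side as the presence of at least 1 peak. Taking ESC sites of both replicates, Gata4 had CHD4 in both cell types (a class of 29.2% of all genes), Gsc in ESCs alone (7.68%), Eomes, Gata6 and Cdx2 in NPCs alone (28.8%), and T, Mixl1, Sox17 and Foxa2 in neither (34.4%). With ESC replicate 1 alone, Eomes joined Gata4 with CHD4 in both cell types (33.5% of all genes). With ESC replicate 2 alone, Eomes, Gata4, Gata6 and Cdx2 had CHD4 in both (49.3% of all genes), T, Mixl1, Gsc and Foxa2 in ESCs alone (18.3%), Sox17 in neither (23.7%), and no gene in NPCs alone (8.62%). The class of 6 of the 9 genes thus depends on which ESC list is used. At Gata4 the NPC peak and the ESC sites were different places, as for most NPC CHD4 peaks. Over the whole NPC CHD4 list, 6.33% of peaks overlapped ESC CHD4 replicate 1 and 14.7% replicate 2.

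Beyond the window, the nearest replicated ESC MBD3 site was from 51.8 kb (Eomes) to 7005 kb (Sox17) from the gene body, with a median of 614 kb, against 541 kb for all genes. The Eomes site, just outside the limit of 50 kb, made it the only gene with an MBD3 site in a window of 100 kb. The nearest ZFP296 peak lay 70.9 kb (Gata4) to 5393 kb (Sox17) away, with a median of 435 kb against 234 kb for all genes. For NPC MBD3 the distances ran from 71.4 kb (Mixl1) to 1878 kb (T), with a median of 405 kb against 337 kb. Median distances to an ESC CHD4 site (151 kb), an ESC SIN3A site (123 kb) and an NPC CHD4 peak (68.9 kb) were all longer than those of all genes (107, 38.3 and 32 kb). Sox17 stood farthest from a replicated ESC MBD3 site and from a ZFP296 peak: 2.84% and 1.73% of all genes were farther away. Its body begins at position 4481009 of chr1, so a site at either distance could lie only at higher coordinates. The part that this position plays was not tested.

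Other regulators of the same germ layers were counted in the same way. The 23 further mesoderm and endoderm genes, among them Mesp1, Hand1, Hnf4a and Otx2, had a median of 9 peaks over the 9 lists, and the 9 genes had 4. A ZFP296 peak lay near 5 of the 23 and a replicated ESC MBD3 site near 3, Foxh1 with 1, Otx2 with 3 and Cdx1 with 3. ESC CHD4 sites were near 10 of the 23, ESC SIN3A sites near 11, NPC CHD4 peaks near 16 and NPC MBD3 peaks near 2, the neighbours Foxf1a and Foxc2, which share the same 4 peaks. Pdx1 shares peaks with Cdx2, and Mesp1 with Mesp2, so these genes are not independent. The core pluripotency genes Pou5f1, Sox2 and Nanog had from 37 to 85 peaks, and an ESC MBD3 site near each. Of 5 neural progenitor genes, 4 had 0 to 4 peaks and Nes, which encodes nestin, had 20, with 8 of NPC CHD4.

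For the 3 members with the most peaks, the genes with the most similar counts were sought by the smallest sum of absolute differences over the 9 lists. Closest to Gata4 was Zfp358 (sum of 1), then BC089491 and E330016A19Rik (2 each, among 7 genes at that sum). Closest to Eomes were Galnt1, Harbi1 and Pou2f2, each at 1 and among 4 genes. Gsc had no such near match, with Klhl5 and Tmem132d at 3 and 1700029F12Rik at 4.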

How the data were processed

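ChIP-seq peaks of MBD3, CHD4, SIN3A and GFP-ZFP296 were analysed for 9 samples, grouped as their titles give. Per the methods, the authors aligned reads to mm9 with BWA, kept uniquely mapped reads without duplicates and called peaks with MACS with input chromatin from the matching line as control. Each of the 9 samples has a list of its own. The submitters' processing notes name MACS2 2.0 and SAMtools. Each deposited peak carries the authors' −log10 value. The sources used here do not give whether p or q lies behind it. Peak names give a threshold of 0.001 for 8 lists and 0.0001 for SIN3A without spike-in, and those of 7 lists mention scaling to equal reads. The values were ranked within a list only, since read depth per list is unknown.

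Interval starts were converted from the 0-based BED form to 1-based mm9 coordinates, and of 104696 peaks on 21 chromosomes 0 ran past the reference. Gene bodies and starts came from GENCODE vM1, for protein-coding genes, and distances were taken from peak midpoints. Strings and base composition were taken from the middle 200 bp in the NCBIM37 sequence. Counting was tested on simulated data. Python 3.11.15, numpy 2.4.6 and matplotlib 3.10.9 were used.

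The members, gene lists and strings were chosen with earlier results of these data known. All 9 members were named, together with replicated MBD3 sites, ZFP296 and NPC MBD3 peaks, the highest valued CHD4 and SIN3A peaks and peaks within 1 kb of a start. The 3 most similar genes were sought for each of the 3 members with the most peaks. Further peaks, and the 11 sequences shown, were chosen after their positions were seen. Of 6 neural progenitor genes, 5 were matched in the annotation and 1, Sox1, was not used here. The window, the peak threshold, list length and the definition of a site were varied.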

Additional observations from a re-analysis of the deposited data

How the results depend on the processing

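Each count of members was recomputed with windows of 10 and 100 kb, a window around the first start alone, any overlapping base in place of the midpoint, a value of at least 10, lists cut to the 2304 highest peaks, and, for factors with 2 lists, a longer overlap (at least 0.5 of the peak), midpoints within 500 bp and each list alone. Of 48 recomputed counts of members, 35 stayed within 1.5 times the reported count and 13 did not. Many of the 35 are counts of 0 for ESC MBD3 sites, ZFP296 or NPC MBD3 that stayed at 0. Most of the settings behind these only remove peaks and could not raise a count of 0, so the 35 do not measure stability. In a window of 10 kb, members with an ESC CHD4 site and with an NPC CHD4 peak both fell to 1 (19% and 35.2% of all genes). In a window of 100 kb, members with an ESC MBD3 site rose to 1 (16.4% of all genes), with a ZFP296 peak to 2 (32.4%) and with an NPC MBD3 peak to 1 (24.7%). At a value of at least 10, members with an ESC CHD4 site fell to 0 (17.1% of all genes) and with an ESC SIN3A site to 2 (32.7%). With lists of equal length, members with an ESC CHD4 site (7.27% of all genes) or an ESC SIN3A site (13.2%) fell to 0, and with an NPC CHD4 peak to 1 (16.2%). Leaving out 1 list of a factor gave 2 to 3 members for MBD3 (15.8% to 33.1% of all genes), 3 to 8 for CHD4 (43% to 67.7%) and 5 for SIN3A (59.2% to 65.1%). The CHD4 count rests on whether replicate 2 is asked for, accepted alone or left out. Narrow windows and shorter lists lower counts by construction, and wide windows raise them.

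No paired analysis was possible because peak lists give no counts per sample and no test was made. ZFP296, NPC MBD3 and NPC CHD4 have 1 list each, so their counts have no replicate check. Signal below the authors' threshold is not in the lists, and list lengths from 2304 to 29974 peaks set how often any gene is marked.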
